A study of Homo sapiens with 12 samples.

Results

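Parental KMS11 cells were compared with the TKO1 and TKO2 clones derived from them. KMS11 is a human multiple myeloma line with the t(4;14) translocation, which joins 1 allele of MMSET, now named NSD2, to immunoglobulin heavy chain control and so overexpresses it. The parental cells (WT) keep that allele beside the wild-type one. In TKO1 and TKO2, separate clones of the TKO genotype, the overexpressed allele had been inactivated by homologous recombination and the wild-type copy was left. Total RNA of each line had been hybridised to 3 Illumina expression BeadChips, so that 9 of the 12 arrays of the series entered, chosen by their labels alone, while the 3 arrays of the line without the wild-type allele were left out. WT had undergone neither gene targeting nor cloning, so allele loss and the history of targeting and cloning cannot be told apart here. The labels do not say whether the 3 arrays of a line came from separate cultures, and p-values therefore measure only the spread between these arrays, whose number limits the precision.

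NSD2 places dimethyl marks on histone H3 at K36, a modification found in active chromatin, and reduces the room for K27 methylation by EZH2, the catalytic subunit of the Polycomb repressive complex PRC2. Loss of the overexpressed allele in t(4;14) myeloma cells is known to lower the first mark and raise the second. Myeloma cells are malignant plasma cells, which in the course of B cell differentiation normally switch off MHC class II and B cell surface receptors and switch on the machinery of antibody secretion.

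Of 9751 genes detected in at least 1 of the 3 lines, 1284 (13.2%) differed between WT and both clones in the same direction, a state termed "held" below (larger of both limma p-values, adjusted p under 0.05). They comprised 886 genes higher in WT (9.09% of those tested) and 398 lower (4.08%). When the smaller of both differences had to exceed 2-fold, 368 higher and 84 lower genes remained. In the comparison with TKO1 by itself 1271 genes were higher (13%) and 880 lower (9.02%) in WT, 22.1% in all. In that with TKO2 1243 were higher (12.7%) and 863 lower (8.85%), 21.6% in all. Against the mean of both clones 1448 genes were higher (14.8%) and 1111 lower (11.4%), 26.2% in all. TKO1 was higher than TKO2 in 121 genes (1.24%) and lower in 106 (1.09%), 2.33% in all. The lower counts moved with single arrays: 1111 fell to between 668 and 700 without any 1 of the 3, 863 fell to between 528 and 562, 880 fell to 547 without WT replicate 2, 584 without WT replicate 3 and 576 without TKO1 replicate 3, and the 398 held lower fell to 255 without WT replicate 2 and 242 without WT replicate 3. Both counts between the clones fell by over 1.5 times without TKO1 replicate 2 (to 51 and 53) or TKO2 replicate 2 (to 57 and 51), and that of genes higher in TKO1 also without TKO2 replicate 1 (to 69).

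**Figure D1:**
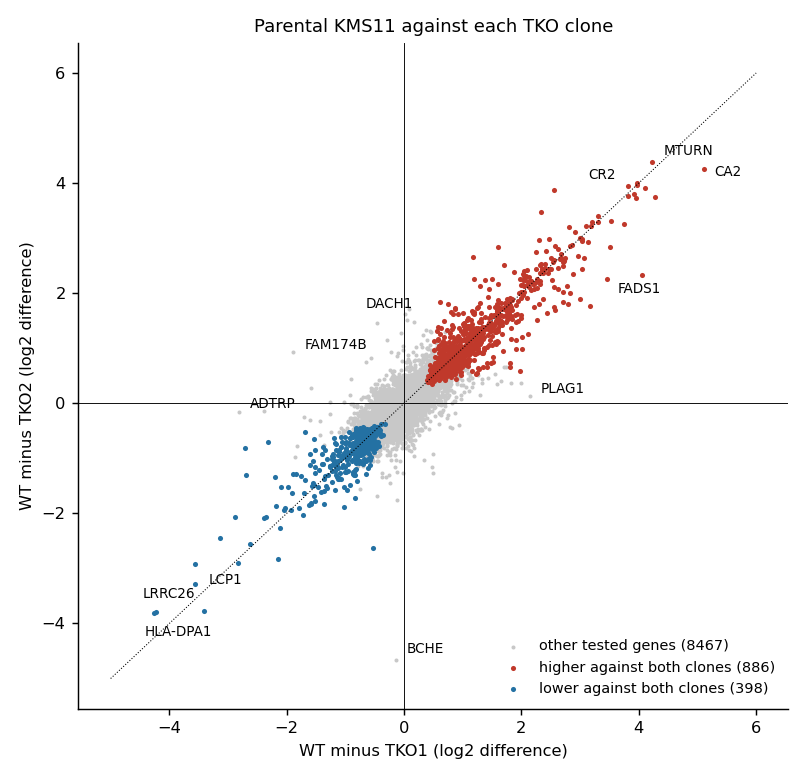
Log2 difference WT minus TKO1 (x axis) against WT minus TKO2 (y axis) for the 9751 tested genes, both measured from the same 3 WT arrays. Red points are the 886 genes held higher in WT and blue points the 398 held lower; grey points did not hold, among them BCHE and ADTRP, which differed from WT in only 1 clone, and the dotted line marks equal differences.

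The arrays of each line resembled each other more than those of WT resembled the clones. Correlations of log2 intensity across genes ran from 0.989 to 0.995 within WT, from 0.985 to 0.989 within the clones, from 0.976 to 0.990 between TKO1 and TKO2, and from 0.945 to 0.964 between WT and either clone. WT arrays detected 33.1 to 33.6% of probes, TKO1 arrays 31.0 to 33.7% and TKO2 arrays 29.0 to 32.7%, and the part of this difference in the results was not tested. With TKO1 replicate 3 and TKO2 replicate 2 left out, the arrays with the fewest detected probes and an alternative chosen after seeing the data, 1318 genes were higher and 960 lower in WT minus TKO. Markers of other blood cells were mostly undetected: of 21 T and NK cell markers only CD247 was tested, with CD3D, CD3E, CD4 and CD8A not detected in any line, and of the myeloid markers 2 were tested, of which CEBPA was higher in WT (2.13 ± 0.16). CD247 was higher in WT by 1.66 ± 0.16. Of 7 stromal and epithelial markers tested 3 were higher, including PDGFRB (1.49 ± 0.17). Among 4 erythroid markers tested HBB was lower in WT (-1.25 ± 0.18).

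The targeted gene was examined first. The NSD2 probe read 6.58, 6.19 and 6.36 on the WT arrays, 5.71, 5.58 and 6.08 on the TKO1 arrays and 5.46, 5.44 and 5.76 on the TKO2 arrays (log2 normalised intensity). Every WT array thus lay above every TKO array, by a small distance. The same was true of 14.2% of all tested genes, the background of every such statement below. The difference was 0.70 ± 0.16 (SE), or 1.63-fold, and NSD2 just held against both clones (adjusted p = 0.0484). It no longer did so when any 1 WT array, TKO1 replicate 1 or 2, or TKO2 replicate 1 or 2 was left out (difference 0.60 to 0.80, adjusted p = 0.0584 to 0.184), or without model-based background correction, with the authors' values, without the detection filter or with all 12 arrays in the fit (adjusted p = 0.0654 to 0.0902). The position of the probe relative to the disrupted segment was not known, so its level is a weak check of the labels.

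FGFR3, the growth factor receptor deregulated by the same translocation, showed no such separation. Its levels were 13.34, 13.30 and 13.51 in WT, 13.24, 13.32 and 13.63 in TKO1 and 13.25, 13.25 and 13.55 in TKO2, with overlapping groups and a difference of 0.01 ± 0.10. A second FGFR3 probe gave -0.03. None of 12 tested neighbours of NSD2 at the tip of chromosome arm 4p held in either direction (median -0.15, against -0.04 over all tested genes).

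Genes higher in WT were led by CA2, which encodes carbonic anhydrase II, an enzyme interconverting carbon dioxide and bicarbonate. CA2 read 10.21, 10.20 and 10.06 in WT, 5.25, 5.03 and 4.87 in TKO1 and 6.05, 5.96 and 5.68 in TKO2. WT was higher by 4.68 ± 0.14 on the log2 scale (adjusted p = 6.45e-11), and the clones themselves differed, TKO1 lying 0.84 below TKO2 (adjusted p = 0.0105). On TKO1 replicates 2 and 3 CA2 lay under the lowest detected signal of the array (5.06 and 5.12). Both sizes therefore rest partly on background readings. A second CA2 probe, detected on 3 WT and 6 TKO arrays, gave 4.16 against TKO1 and 3.69 against TKO2. MTURN, a gene named for neural progenitor differentiation, read 9.63, 9.44 and 9.25 in WT and 5.04 to 5.31 over the 6 TKO arrays, a 19.7-fold difference (4.30 ± 0.14). CR2, the complement receptor CD21 of mature B cells, read 8.75, 8.41 and 8.51 in WT and was detected on no TKO array, so that WT was at least 11-fold higher, a bound set against the lowest detected signal of the arrays. A second CR2 probe gave 3.39.

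Several leading genes act in collagen production. LARP6, an RNA-binding protein that recognises collagen messages, was detected on the 3 WT arrays at 8.65, 8.90 and 8.68 and on no TKO array (at least 12.5-fold). PCOLCE2, an enhancer of procollagen processing, followed at 8.87, 8.40 and 8.55 (at least 11.4-fold). PLOD2, a lysyl hydroxylase that prepares collagen for cross-linking, read 8.97, 8.91 and 8.98 in WT against 4.58 to 5.26 in the TKO arrays, 2 of which detected it (4.02 ± 0.14). Other probes gave smaller differences in the same direction, 0.74 and 1.27 for PLOD2 and 1.66 for LARP6. The prolyl hydroxylase subunits P4HA1 (0.93 ± 0.16) and P4HA2 (at least 1.41-fold, not held with all 12 arrays in the fit, adjusted p = 0.104), the metalloprotease ADAM19 (2.36 ± 0.14, detected on 3 of 6 TKO arrays) and the laminin chain LAMB1 (at least 1.4-fold) were higher as well. Conversely COL6A1, a collagen VI chain, was undetected in WT and detected on all 6 TKO arrays, at least 2.32-fold lower. Among 21 tested genes of the collagen and matrix list 7 held higher (33.3%) and 3 lower (14.3%), with a median of 0.15. The shares of 9.09% and 4.08% over all tested genes are the background of this and every other list count. Of the 21, 4 were tested only through WT and 4 only through the clones. Without the detection filter 7 of 39 held higher (17.9%, against 4.52% of all genes) and 2 lower (5.13%, against 1.63%), with a median of 0.004.

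Both MTURN and LARP6 start in CpG-rich sequence. Their RefSeq promoters (GRCh38.p14, 300 bases spanning the start) are shown because both genes rank among the leading differences and carry dense CG pairs, in capitals: 45 in MTURN (chr7:30134736-30135035, + strand) and 49 in LARP6 (chr15:70854108-70854407, - strand).
MTURN: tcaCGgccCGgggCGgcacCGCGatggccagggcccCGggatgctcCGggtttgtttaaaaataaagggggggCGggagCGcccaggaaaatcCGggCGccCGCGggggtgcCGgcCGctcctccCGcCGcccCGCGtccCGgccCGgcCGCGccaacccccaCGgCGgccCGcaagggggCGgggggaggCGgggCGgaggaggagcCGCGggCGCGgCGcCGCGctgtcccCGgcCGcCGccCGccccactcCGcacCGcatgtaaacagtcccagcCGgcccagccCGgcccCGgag
LARP6: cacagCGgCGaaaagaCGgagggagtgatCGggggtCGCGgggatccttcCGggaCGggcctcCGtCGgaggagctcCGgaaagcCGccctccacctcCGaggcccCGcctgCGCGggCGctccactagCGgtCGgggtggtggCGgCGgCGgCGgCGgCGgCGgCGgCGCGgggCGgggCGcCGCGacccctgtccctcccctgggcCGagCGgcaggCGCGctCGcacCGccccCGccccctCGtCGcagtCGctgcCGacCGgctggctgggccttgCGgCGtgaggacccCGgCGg
This density was not shared by the held genes at large. The median was 27 CG pairs in the 717 promoters of genes held higher, 25 in the 307 of genes held lower and 26 in all 8078 promoters of tested genes.

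Other leading genes encode proteins of the cell surface and the actin skeleton. CDH2, N-cadherin, read 9.96, 9.93 and 9.91 in WT, 6.33, 6.38 and 5.83 in TKO1 and 6.94, 6.51 and 6.59 in TKO2 (11.3-fold, 3.50 ± 0.15). CNN3, an actin-binding calponin, was detected in WT only, at 8.43, 8.37 and 8.19 (at least 9.42-fold), as were SVIL, a membrane-linked actin binder (at least 7.14-fold), and CAP2, a cyclase-associated actin regulator (at least 6.80-fold). RAI14, an actin-bundling protein, was higher by 3.84 ± 0.15 and detected on 1 of 6 TKO arrays. IGF2BP2, which binds and stabilises messenger RNAs, was 14.6-fold higher (9.10, 8.96 and 8.93 in WT, 5.02 to 5.30 in the TKO arrays, 3 of which detected it). TEX14, a germ cell protein of intercellular bridges, was 16.1-fold higher. On TKO1 replicate 3 it read 4.80, under the lowest detected signal of that array (5.12). The folds of TEX14 and IGF2BP2 therefore rest partly on background readings. The carboxypeptidase CPVL was 10.7-fold higher, and the small membrane protein SMCO4, detected on 3 of 6 TKO arrays, was higher by 3.35 ± 0.15. In each of these genes the WT arrays lay above all 6 TKO arrays, which follows from their choice by size of difference. Of the 1284 held genes, 1276 had WT arrays apart from all TKO arrays.

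**Figure D2:**
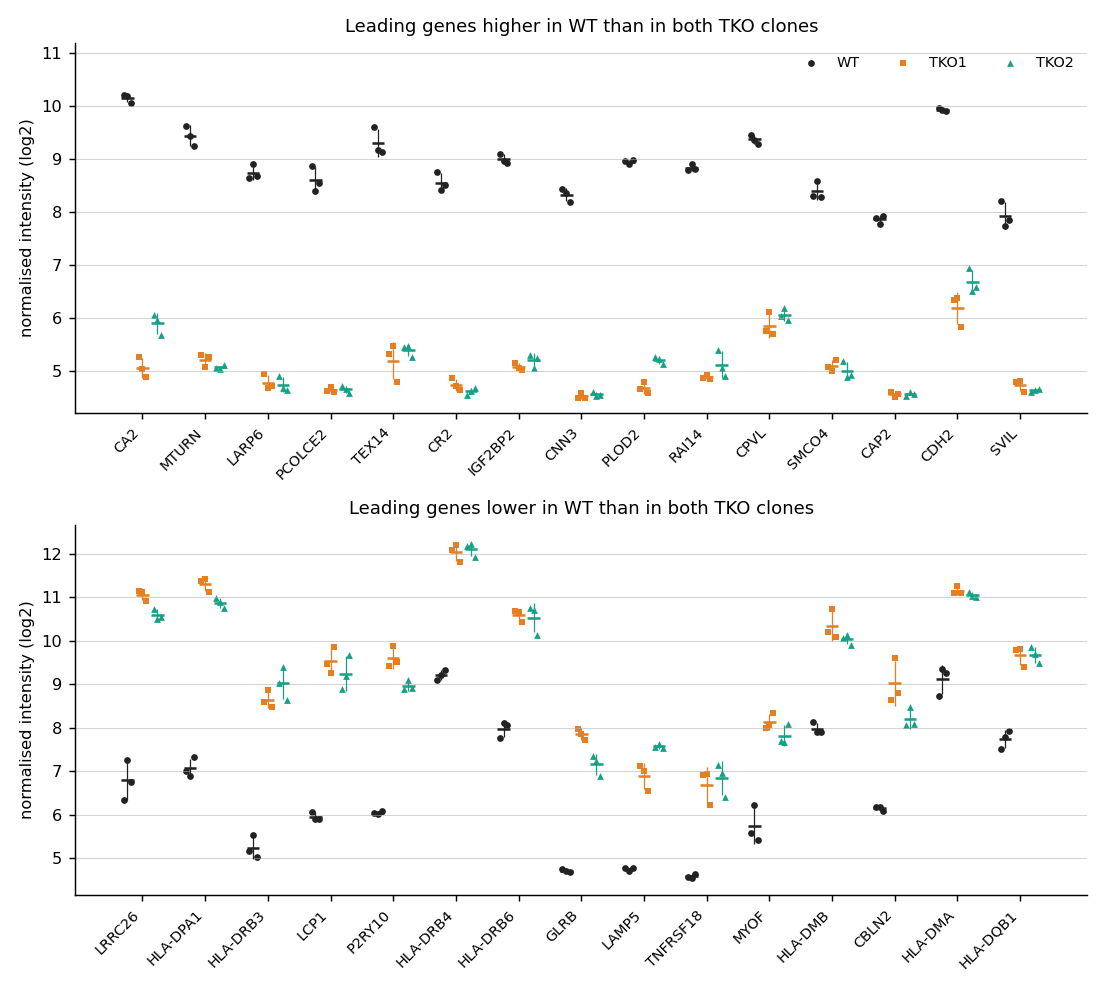
Normalised intensity (log2, y axis) of the 15 genes leading in each direction by the smaller of both differences, on 3 WT (circles), 3 TKO1 (squares) and 3 TKO2 arrays (triangles); horizontal bars are means and vertical lines SDs. WT and TKO arrays do not overlap in any of the 30 genes, which were ranked by this difference, nor in 25.5% of all tested genes. Levels of different probes are not comparable with each other.

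S100A10, the annexin A2 partner that links membranes to actin, was 9.02-fold higher in WT (11.59, 11.86 and 11.48 against 7.68 to 9.14), and S100A4 2.62-fold. FADS1, a fatty acid desaturase, was higher against both clones but unequally, with differences of 3.46 against TKO1 and 2.27 against TKO2 (clones differing, adjusted p = 0.000505). Among the remaining adhesion genes, the junctional molecules JAM2 (at least 4.85-fold) and JAM3 (1.30 ± 0.14) and the epithelial adhesion molecule EPCAM (2.10 ± 0.15) were higher in WT. Another EPCAM probe gave a smaller difference, 0.70. NECTIN3, which pairs with other nectins between cells, was lower (-1.08 ± 0.12). In all, 4 of 17 tested genes of the cadherin, junctional and immunoglobulin-type list held higher and 2 lower (median 0.08). Of single actin-binding proteins, the bundling protein PLS3 (2.05 ± 0.16), the profilin PFN2 (1.52 ± 0.14) and the tropomyosin TPM1 (1.27 ± 0.20) were higher.

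Genes lower in WT included several of leukocytes and of antigen presentation. LCP1, the plastin that bundles actin in leukocytes, read 6.07, 5.90 and 5.90 in WT, 9.47, 9.26 and 9.85 in TKO1 and 8.88, 9.19 and 9.67 in TKO2, 10.8-fold lower in WT (-3.43 ± 0.17). Its paralog PLS3 thus moved the other way. WIPF1, which stabilises the WASP protein in blood cells, was lower by 1.5 ± 0.15 on the log2 scale, though 1 of its 2 other probes did not hold (-0.96). ITGAL, the integrin chain of LFA-1 on leukocytes, was 3.59-fold lower (-1.84 ± 0.15). P2RY10, a lysophospholipid receptor of lymphocytes, was 9.44-fold lower (6.04, 6.02 and 6.08 against 8.89 to 9.89).

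LRRC26, an auxiliary subunit that eases the opening of BK potassium channels, headed the genes held lower in WT. It read 6.35, 7.26 and 6.76 in WT, 11.14, 11.11 and 10.91 in TKO1 and 10.74, 10.50 and 10.54 in TKO2, 16.4-fold lower in WT (-4.03 ± 0.16). Another LRRC26 probe gave -0.93. By contrast KCNS3, a modulatory potassium channel subunit (at least 3.25-fold), and KCNMB4, another auxiliary subunit of BK channels (at least 2.06-fold), were detected in WT and on no TKO array. GLRB, the beta subunit of the glycine receptor (at least 5.66-fold lower), LAMP5, a lysosome-associated membrane protein (at least 4.68-fold lower), and TNFRSF18, the receptor GITR of lymphocytes (at least 3.40-fold lower), were detected on all 6 TKO arrays and on no WT array. MYOF, a membrane repair protein of the ferlin family (-2.23 ± 0.18), and CBLN2, a secreted synaptic organiser (-2.47 ± 0.18), were lower as well.

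MHC class II genes, which present peptides to helper T cells, were lower in WT as a group. Of 17 tested members of this list 12 held lower in WT and none higher (70.6%, against 4.08% of all tested genes), with a median of -1.59. Since 4 of the 17 were tested only through the clones, this share depends on the detection filter. Without it 12 of 20 held lower (60%, against 1.63%). HLA-DPA1, the alpha chain of HLA-DP, read 6.99, 6.90 and 7.32 in WT, 11.38, 11.42 and 11.12 in TKO1 and 10.97, 10.89 and 10.75 in TKO2, a 16.2-fold difference (-4.02 ± 0.12). HLA-DMA and HLA-DMB, which load peptides onto class II molecules, were lower by 1.99 ± 0.13 and 2.21 ± 0.14. HLA-DRA (-1.53 ± 0.09) and CD74 (-1.36 ± 0.10), the invariant chain, were lower too, from WT levels of 11.81 to 12.10 and 12.08 to 12.39. CIITA, the coactivator that switches on these promoters, was detected on 1 WT array and all 6 TKO arrays (-1.59 ± 0.19). Its DNA-bound partner subunits RFX5, RFXANK and RFXAP did not hold. The count of 12 ran from 11 to 13 over all arrays left out. HLA-DRB3, HLA-DRB4 and HLA-DRB6 (-3.59, -2.87 and -2.59) have near-identical sequences and their probes may share signal; 1 of 3 HLA-DRB4 probes gave -0.33 and did not hold. MHC class I genes moved less, with HLA-E (-1.08 ± 0.12) and TAP1 (-0.76 ± 0.12) lower out of 17 tested.

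CIITA acts through proteins bound to an X box, by the RFX complex, and a Y box, by NF-Y. Promoters of 3 held class II genes, from RefSeq (GRCh38.p14), are shown for these elements: HLA-DMA (chr6:32953048-32953347, - strand), HLA-DMB (chr6:32940979-32941278, - strand) and HLA-DPB1 (chr6:33075740-33076039, + strand). Capitals mark matches on either strand to the strings GATTGG, taken as the Y box core, and TGATGATG, a run within the X box. The second was searched for after the sequences had been seen. HLA-DMA and HLA-DMB hold both strings, and HLA-DPB1 holds only the first. In HLA-DMB and HLA-DPB1 that first string lies on the opposite strand, as CCAATC. Spacing and orientation were not used, so a mark need not be the bound element. Boxes of any other sequence stay unmarked.
HLA-DMA: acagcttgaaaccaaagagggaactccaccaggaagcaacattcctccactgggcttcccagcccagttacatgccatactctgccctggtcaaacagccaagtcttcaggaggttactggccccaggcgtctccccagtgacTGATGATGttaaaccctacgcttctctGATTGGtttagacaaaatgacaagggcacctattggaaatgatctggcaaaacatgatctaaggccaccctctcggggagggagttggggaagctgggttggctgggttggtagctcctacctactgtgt
HLA-DMB: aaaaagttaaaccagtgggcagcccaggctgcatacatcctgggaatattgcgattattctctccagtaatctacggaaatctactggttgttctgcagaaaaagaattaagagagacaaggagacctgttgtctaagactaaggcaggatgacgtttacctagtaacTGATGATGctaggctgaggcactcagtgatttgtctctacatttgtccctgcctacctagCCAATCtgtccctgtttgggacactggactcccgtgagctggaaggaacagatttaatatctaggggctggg
HLA-DPB1: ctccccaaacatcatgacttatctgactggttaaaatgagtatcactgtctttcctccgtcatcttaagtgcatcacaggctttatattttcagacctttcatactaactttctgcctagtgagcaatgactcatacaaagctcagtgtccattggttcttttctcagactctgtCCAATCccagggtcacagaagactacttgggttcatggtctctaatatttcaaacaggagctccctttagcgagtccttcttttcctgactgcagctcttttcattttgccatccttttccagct
GATTGG occurred in 5 of 7 promoters found for held class II genes and in 20.8% of the promoters of all tested genes. TGATGATG, picked from these promoters, occurred in 3 of the 7 and in 0.396%, a description only. HLA-DPB1 itself, the beta chain of HLA-DP, was undetected in WT and at least 3.76-fold lower. The held class II promoters had a median of 3 CG pairs.

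Few plasma cell identity genes held, in shares near those of all tested genes. Of 20 tested members 3 held higher (15%, against 9.09%) and 1 lower (5%, against 4.08%), with a median of -0.17. The lower count was 2 without TKO2 replicate 2 or 3. SDC1, the syndecan CD138 that defines plasma cells, read 7.74, 7.53 and 7.74 in WT, 6.37, 6.01 and 5.90 in TKO1 and 6.43, 5.83 and 6.32 in TKO2 (2.88-fold, 1.53 ± 0.17). CD38, another surface marker of plasma cells, was detected in WT and on no TKO array (at least 1.5-fold). JCHAIN, which joins IgM and IgA polymers, was lower (-0.70 ± 0.11), a call lost with median centring (-0.45, adjusted p = 0.412). The transcription factors of the plasma cell state did not separate: IRF4 differed by 0.03 ± 0.12, PRDM1 by 0.18 ± 0.11 and XBP1 by -0.12 ± 0.10, and MZB1, a secretory chaperone, by -0.27 ± 0.11. BACH2, a repressor of the plasma cell programme, was higher in WT (1.01 ± 0.17, not held with all 12 arrays in the fit, adjusted p = 0.0866, nor by its other probe, 0.44). SDC1, IRF4, PRDM1, XBP1 and MZB1 were detected on all 9 arrays.

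The MAP kinase cascade relays signals from receptors such as FGFR3 to the nucleus. Of 16 tested members of its list 7 held higher in WT and none lower (43.8%, against 9.09% of all tested genes), with a median of 0.50. Since 5 of the 16 were tested only through their WT arrays, this share depends on the detection filter, and without it 7 of 21 held higher (33.3%, against 4.52%). The other 9 did not hold, and SPRED1, an inhibitor of the cascade, lay in the other direction (-0.47, adjusted p = 0.098). The count of 7 was the same with any 1 array left out. FOS read 6.92, 6.77 and 6.31 in WT and was detected on no TKO array (at least 2.98-fold). JUN, its partner in AP-1, read 9.15, 9.17 and 9.22 in WT, 6.87, 6.2 and 6.77 in TKO1 and 7.75, 7.17 and 7.56 in TKO2 (4.37-fold, 2.13 ± 0.16), and the clones differed by -0.88 (adjusted p = 0.019). The ETS factors ETV5 (1.48 ± 0.18) and ETV4 (1.23 ± 0.15) and the feedback inhibitors SPRY2 (1.37 ± 0.16, detected on 1 of 6 TKO arrays), DUSP4 (at least 1.87-fold) and DUSP5 (1.01 ± 0.13; adjusted p = 0.0881 with all 12 arrays in the fit) made up the rest. The second probes of ETV5 (0.40) and ETV4 (0.71) did not hold (adjusted p over all probes 0.521 and 0.19). DUSP6, also a feedback phosphatase, overlapped between groups (0.53 ± 0.15, adjusted p = 0.388).

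**Figure D3:**
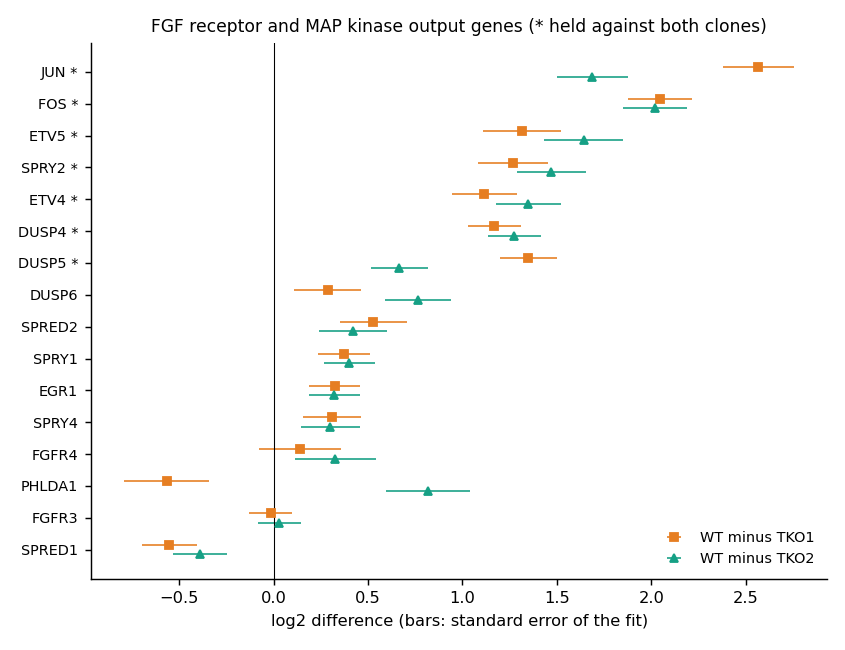
Log2 difference (x axis) of WT minus TKO1 (squares) and WT minus TKO2 (triangles) for the 16 tested FGF receptor and MAP kinase output genes, with standard errors of the fit as bars; both differences share the WT arrays. The 7 genes with an asterisk lie to the right of 0 against both clones, while FGFR3 lies at 0.

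TGF-beta and BMP signalling, which acts through receptor kinases and SMAD proteins, had 7 of 24 members higher (29.2%) and 3 lower (12.5%), with a median of 0.03. Without the detection filter 6 of 34 were higher (17.6%). SMAD3, a TGF-beta effector, read 6.87, 6.51 and 6.77 in WT against 4.79 to 5.07 in the clones, where 2 of 6 arrays detected it (1.72 ± 0.14). ID1, a direct BMP target (1.60 ± 0.17), the receptors ACVR1 (1.27 ± 0.13) and BMPR2 (at least 1.68-fold) and the co-receptor TGFBR3 (0.81 ± 0.15) were higher too. The 3 lower members fell to 1 without WT replicate 1 or 2 or TKO2 replicate 1 and to 0 without TKO2 replicate 2. WNT pathway genes gave 7 higher (33.3%) and 1 lower (4.76%) of 21 (median 0.19), the latter 0 without TKO2 replicate 3. Of the 21, 4 were tested only through WT, and without the detection filter 6 of 39 were higher (15.4%, against 4.52% of all genes). They included the ligands WNT10A (8.98, 9.52 and 9.5 against 7.34 to 7.76, 1.79 ± 0.14) and WNT5A (0.82 ± 0.14, detected on 1 of 6 TKO arrays), the Frizzled receptors FZD4, FZD2 and FZD8, each detected in WT and on no TKO array, and the co-receptor LRP5 (1.05 ± 0.17, but 0.53 and not held by its other probe). In the Notch pathway NOTCH1, the receptor, was lower in WT, where 1 array detected it (-1.81 ± 0.18; 4.84, 5.16 and 4.93 against 6.08 to 7.19) and HEY2, a target repressor, was higher (at least 1.47-fold).

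Of 20 tested NF-kB pathway genes 5 held lower and none higher (25%, against 4.08% lower over all tested genes), with a median of -0.43. Without the detection filter 4 of 26 were lower (15.4%, against 1.63%). TNFAIP3, the feedback inhibitor A20, read 9.59, 9.58 and 9.54 in WT against 10.49 to 10.98 (-1.12 ± 0.12). IL2RG, the common cytokine receptor chain, was lower by 1.26 ± 0.12. The count of 5 ran from 3 to 6 over all arrays left out and fell by over 1.5 times without any 1 WT array or TKO2 replicate 3. LTB, lymphotoxin beta, was undetected in WT and detected on all 6 TKO arrays, yet did not hold (adjusted p = 0.0737), and did so without TKO1 replicate 2 (-1.14, adjusted p = 0.00479), its brightest array, without TKO1 replicate 3 (-1.66, adjusted p = 0.0136), with the authors' values (-2.01, adjusted p = 0.00397) or without model-based background correction (-2.02, adjusted p = 0.00418). Of 23 tested interferon response genes 5 held higher (21.7%, against 9.09%) and 5 lower (21.7%, against 4.08%), with a median of -0.26. Of the 23, 3 were tested only through WT. Without the detection filter 6 of 40 held higher (15%, against 4.52%) and 5 lower (12.5%, against 1.63%). With all 12 arrays in the fit 5 of 24 held higher (20.8%) and 1 lower (4.17%). ISG20 (1.28 ± 0.13), HERC5 (1.17 ± 0.13) and the neighbouring antiviral genes MX1 (1.16 ± 0.15) and MX2 (at least 1.33-fold) were higher. IRF9, the DNA-binding part of the interferon-activated complex, was lower (-1.39 ± 0.16, not held with all 12 arrays in the fit, adjusted p = 0.0881). The lower count was 2 to 6 over arrays left out, and fell by over 1.5 times without WT replicate 2 or 3. Among cytokine signalling genes SOCS2 was 3.61-fold higher and SOCS1 2.85-fold lower, both being feedback inhibitors, and STAT6 was higher (0.93 ± 0.14).

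**Figure D4:**
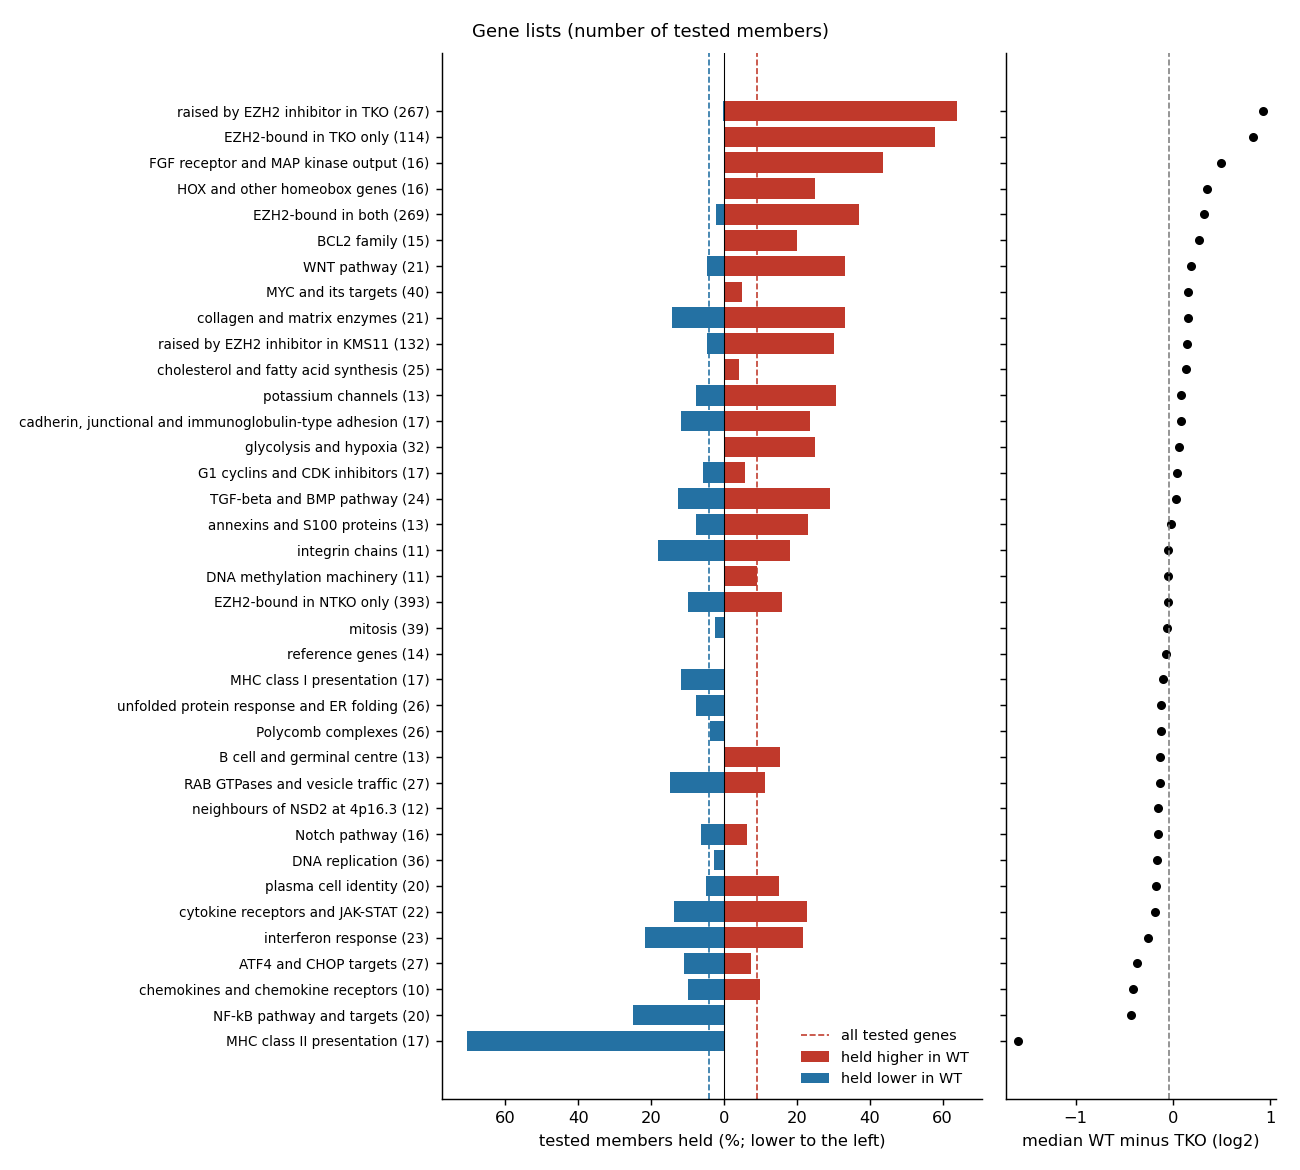
Left, percent of tested members (number in brackets) held higher in WT (red, to the right) or lower (blue, to the left) for the plotted gene lists, each with 10 or more tested members; dashed lines give the share over all tested genes, 9.09% and 4.08%. Right, median difference WT minus TKO (log2) of each list, with -0.04 over all genes as the dashed line; MHC class II lies lowest at -1.59.

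Targets of EZH2 were taken from the lists of the study, made by ChIP-seq in TKO and in the line without the wild-type allele (NTKO), and by RNA-seq after inhibition of EZH2, hence not from these arrays. Of 114 tested genes bound by EZH2 in TKO only, 66 held higher in WT (57.9%, against 9.09% of all tested genes) and none lower (median 0.82). Of 269 bound in both lines, 100 were higher (37.2%) and 6 lower (median 0.32), and of 393 bound in NTKO only, 62 were higher (15.8%) and 39 lower (9.92%, against 4.08%; median -0.05). Genes that the inhibitor raised in TKO gave 171 higher (64%) and 1 lower of 267 (median 0.93), whereas those it raised in KMS11 gave 40 higher (30.3%) and 6 lower of 132 (median 0.15). The small lower counts moved with single arrays: 6 bound in both lines became 3 without WT replicate 3, and without TKO1 replicate 1 the 0 bound in TKO only became 1 and the 1 raised in TKO became 2. These shares were not independent of the detection filter, since 35 of the 114, 97 of the 269, 45 of the 393, 149 of the 267 and 45 of the 132 genes were tested only because all WT arrays detected them. Without the filter, a setting added for the lists after seeing the data, 4.52% of 18666 genes held higher. The counts held higher were then 66 of 195, 95 of 635, 61 of 836, 185 of 687 and 44 of 391 in the same order, or 33.8%, 15%, 7.3%, 26.9% and 11.3%. In the other direction, 32 of the 393 genes bound in NTKO only were tested only through the clones, against 337 of all 9751. Their 9.92% held lower thus depends on the filter too, and lower counts without it are not given here.

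CA2, LARP6, CR2, PLOD2, RAI14 and CPVL were among the genes the inhibitor raised in TKO. MTURN, CR2, CPVL and CAP2 belonged to the genes bound in TKO only, together with DDAH1, an enzyme that degrades methylated arginine (8.03, 7.73 and 7.48 in WT, no TKO array detected, at least 6.28-fold), and MSRB3, a methionine sulfoxide reductase (at least 5.09-fold). Other MSRB3 probes gave smaller log2 differences in the same direction, 0.55 and 1.82. Genes bound in both lines included TMEM158, a membrane protein induced by Ras signalling (7.79, 7.80 and 7.91 in WT, at least 6.68-fold), the transcription factor SOX21 (at least 6.06-fold) and YAP1, the Hippo pathway coactivator (7.84, 7.38 and 7.37 in WT, at least 5.41-fold). Each of these 5 was undetected on all TKO arrays. Genes bound in NTKO only, of which 62 held higher and 39 lower, included the sialyltransferase ST6GAL1 (2.73 ± 0.17) and the leading genes CNN3 and SVIL, all higher in WT. Of 26 tested Polycomb genes none held higher and 1 lower (0 without WT replicate 2 or 3, TKO1 replicate 3, TKO2 replicate 1 or 3, and 1 higher without TKO1 replicate 3), and EZH2 (-0.14 ± 0.18), SUZ12 (-0.08 ± 0.10) and EED (0.17 ± 0.12) overlapped between groups. DNMT3B, a de novo DNA methyltransferase, was the only 1 of 11 DNA methylation genes to hold, higher in WT (1.15 ± 0.14). Homeobox genes gave 4 higher and none lower of 16, among them IRX3 (1.30 ± 0.16), PBX3 (0.83 ± 0.10) and TGIF1 (0.94 ± 0.16, with 1 of 2 other probes not held, 0.70).

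Held genes also lay side by side on chromosomes. The longest run of neighbouring tested genes comprised 8 members of the BEX and TCEAL families on chromosome X, small proteins related to a transcription elongation factor, all higher in WT with a median of 2.04. This run was noticed after the values had been seen. BEX3 read 12.24, 12.37 and 12.21 in WT, 10.00, 9.25 and 9.56 in TKO1 and 9.83, 9.64 and 9.20 in TKO2 (6.48-fold, 2.70 ± 0.16), and TCEAL3 was 8.05-fold higher (3.01 ± 0.17). BEX1 (2.54 ± 0.21) and BEX4 (2.18 ± 0.16, detected on 1 of 6 TKO arrays) followed. BEX2 (1.89 ± 0.17) and TCEAL8 (0.72 ± 0.12) held except with all 12 arrays in the fit (adjusted p = 0.267 and 0.158). TCEAL4 (0.93 ± 0.12) was lost without TKO1 replicate 2 (adjusted p = 0.0564). TCEAL1 (0.95 ± 0.22) was lost without WT replicate 1 or 3, TKO1 replicate 2 or 3, or TKO2 replicate 1 (adjusted p = 0.0536 to 0.254), and 1 of its 2 other probes did not hold (0.46). BEX5 in the same region overlapped between groups (0.50 ± 0.19). A group of 3 metallothioneins, metal-binding proteins encoded next to each other on chromosome 16, formed part of another run: MT1X (1.32 ± 0.21), MT2A (0.91 ± 0.17) and MT1F (at least 1.98-fold).

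**Figure D5:**
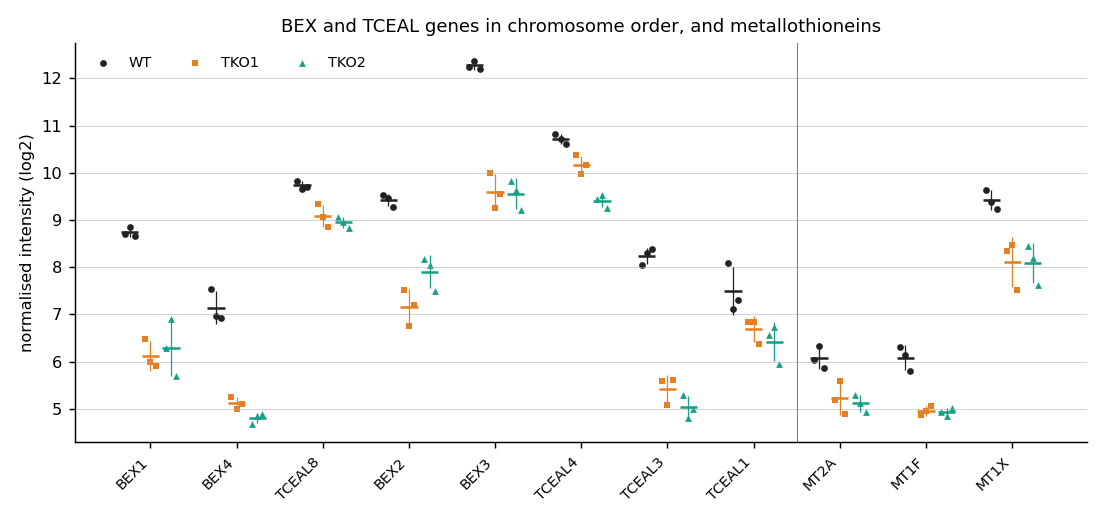
Normalised intensity (log2, y axis) of the 8 BEX and TCEAL genes in their chromosome order and of 3 metallothioneins, on WT (circles), TKO1 (squares) and TKO2 arrays (triangles), with means and SDs. All WT arrays lie above all TKO arrays in each of the 11 genes, as in 14.2% of all tested genes, most widely in BEX1, BEX3 and TCEAL3.

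Few genes of growth and cell division held. Of 39 mitosis genes tested none held higher and 1 lower, of 36 DNA replication genes none and 1, and without the detection filter no member of either list held. Leaving out 1 array gave 0 or 1 lower mitosis gene, the 1 only without TKO1 replicate 1 or TKO2 replicate 2, and 0 to 2 lower replication genes. MYC read 12.14, 12.17 and 12.26 in WT, 11.43, 11.56 and 11.87 in TKO1 and 11.62, 11.77 and 11.99 in TKO2. Its groups did not overlap, but it narrowly failed to hold (0.48 ± 0.11, adjusted p = 0.0524) and did hold with the authors' values, without model-based background correction (adjusted p = 0.0459 and 0.0494), with median centring or cyclic loess, with the mean of both MYC probes (0.66, adjusted p = 0.0045), or without TKO1 replicate 1, TKO1 replicate 3 or TKO2 replicate 3 (adjusted p = 0.0210 to 0.0405). MYCN, its neural paralog, was higher (1.13 ± 0.11), as 1 of 2 held genes among 40 of the MYC list (median 0.16), a count that ran from 1 to 4 over all arrays left out and moved by over 1.5 times without WT replicate 2 or TKO1 replicate 3. CDKN1C, the cell cycle inhibitor p57, was higher (1.15 ± 0.17). The death effector PMAIP1, known as NOXA, was higher (0.64 ± 0.13, not held with all 12 arrays in the fit, adjusted p = 0.563, nor by its other probe, 0.70). Glycolysis and hypoxia genes gave 8 higher and none lower of 32 (median 0.06), LDHB among them (0.77 ± 0.10), a count that fell to 3 to 5 without any 1 WT array. None of 14 reference genes held (1 did without TKO2 replicate 1). GAPDH, a glycolytic enzyme often used as reference, gave 0.21 by its brightest probe and passed by 2 others (0.37 and 0.54).

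A smaller set of genes differed from WT in only 1 clone. Of 681 genes called against TKO1 but not TKO2, 64 differed between the clones, as did 78 of 636 called against TKO2 but not TKO1. By its brightest probe BCHE, butyrylcholinesterase, was undetected in WT and TKO1 and read 9.0, 9.43 and 9.31 in TKO2. TKO1 minus TKO2 was -4.53 (adjusted p = 1.14e-10). A second BCHE probe, detected on 2 WT arrays, gave 0.12 against TKO1 and -3.24 against TKO2. CD72, a B cell coreceptor, read 7.10, 6.68 and 6.31 in TKO2 against 4.89 to 4.99 in WT, near the lowest detected signals of the WT arrays (4.99 to 5.02). ADTRP, a membrane hydrolase (7.41, 8.16 and 6.76), and ADAMTSL2, a matrix protein (6.75, 6.83 and 7.18), were detected in TKO1 and in no array of WT or TKO2. PLAG1, a zinc finger transcription factor, was lower than in WT by 0.13 in TKO2 and by 2.15 in TKO1 on the log2 scale. DACH1, a transcriptional repressor, read 6.91, 7.32 and 7.0 in TKO1, 5.30, 5.08 and 5.06 in TKO2 and 6.66, 6.62 and 6.55 in WT, between the clones. On TKO2 replicates 2 and 3 DACH1 lay under the lowest detected signal of the array (5.26 and 5.11). Only 5 genes were called in opposite directions: ANXA1, CAV1 and CTH were higher in WT than in TKO1 and lower than in TKO2, and FAM174B and PRAG1 the reverse. In FAM174B the WT arrays read 5.66, 6.19 and 5.44 between TKO1 (7.53, 7.46 and 7.95) and TKO2 (4.99, 4.68 and 4.83). These TKO2 readings lay under the lowest detected signals of the arrays (5.03, 5.26 and 5.11), so FAM174B was undetected there. Of the 1284 held genes 56 differed in size between the clones.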

How the data were processed

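RNA of the 3 lines was measured on Illumina HumanWG-6 v3 arrays, and groups and replicate numbers came from the titles. The deposited export of GenomeStudio (version not stated) holds 48803 probes with background-subtracted, unnormalised linear intensity values, each with a deposited detection p-value from negative controls. A second table holds intensity values processed by the authors, used as an alternative, and the 3 NTKO arrays entered 1 other alternative.

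The 9 arrays were normalised with neqc (limma 3.58.1, R 4.3.3, offset 16) and log2 transformed. Of the probes, 27578 had 1 gene in the platform annotation, updated through RefSeq. Probes were kept where every array of some line had a detection p-value below 0.05 (15366, of which 12787 had 1 gene), the brightest standing for its gene. Hence 650 genes were tested only through WT and 337 only through the clones. Line means were fitted with lmFit and eBayes (trend, robust, statmod 1.5.0), tests were two-sided, and p-values were adjusted by Benjamini-Hochberg across the 9751 genes. For "held" the larger p-value of both clones was adjusted, and adjusted p-values without further mention are these. Differences are log2 WT minus the mean of both clones ± SE. "At least" gives the fold over the lowest detected signal where one side had no detected array. The fit was tested on simulated data, and no 2 arrays were identical.

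Named genes were the 15 held genes in each direction with the largest smaller difference, up to 6 held per list, all named in the study, and the 8 differing most between clones among those called against 1. IRF4, PRDM1, XBP1, MZB1, DUSP5, DUSP6, SPRED1, HLA-DPB1, HLA-DRA, CD74, CIITA, the RFX genes, BEX, TCEAL and metallothionein genes and those of opposite direction were added after their values were seen. Members, lists and tests were chosen with earlier results of these data known. Of the EZH2 list symbols 2989 were current, 324 older and 122 unmatched. Not every list is reported here. Alternatives covered background correction, the authors' values, normalisation, filter, probe choice, all 12 arrays, a replicate block, the variance model, the methods' t-test (described there for NTKO against TKO, with more NTKO arrays than the labels give, and applied here to WT against TKO) and each array left out. Same-numbered arrays were not paired in the main fit. Deviations of same-numbered arrays correlated at -0.14 to 0.09 between WT and a clone. Between TKO1 and TKO2 they correlated at 0.50, 0.10 and 0.51, against -0.52 to 0.07 for arrays of unlike number. The clones thus shared a replicate pattern that the TKO1 minus TKO2 test left unused. With a replicate block that test gave 156 genes higher and 149 lower in TKO1, and the source of the pattern was not tested.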

Additional observations from a re-analysis of the deposited data

Results flagged for a closer look

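In 12 of 151 named genes 1 TKO array stood apart from the other 5 by Dixon's criterion, where chance gives about 1 in 20. TKO1 replicate 2 lay highest in HLA-DMB (10.73), IRF9 (8.99) and SPRY2 (5.24). TKO1 replicate 3 lay highest in BACH2 (6.22) and TGFBR3 (6.19) and lowest in SMAD3 (4.79) and TEX14 (4.80). TKO2 replicate 1 lay highest in HLA-E (9.64) and RAI14 (5.40) and lowest in P4HA1 (6.74), TKO1 replicate 1 lowest in ITGAL (7.10), and TKO2 replicate 2 highest in NECTIN3 (9.80).

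In 24 named genes the differences from WT were unequal between the clones by a test of TKO1 minus TKO2. TKO1 was lower in BCHE (-4.53), PLAG1 (-2.02), INHBE (-1.77), CD72 (-1.65), ANXA1 (-1.64), CTH (-1.41), CAV1 (-1.21), FADS1 (-1.19), JUN (-0.88), CA2 (-0.84), ADAM19 (-0.69) and DUSP5 (-0.68). TKO1 was higher in FAM174B (2.81), ADTRP (2.65), ADAMTSL2 (2.25), DACH1 (1.93), CHRNA1 (1.85), PRAG1 (1.39), IRX3 (0.87), EPCAM (0.80), TCEAL4 (0.76), GLRB (0.70), IL2RG (0.68) and P2RY10 (0.64).

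Kept probes that the annotation pairs with no single gene entered no comparison above. Of 2579 such probes 137 were higher in WT than in both clones and 60 lower.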

How the results depend on the processing

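Of 122 named genes that held, 111 did so under every alternative in which they were tested. Some of them, COL6A1 and CD38 among them, were tested in 18 of the 19 alternatives counted. The methods' t-test and the fit without the arrays with the fewest detected probes were not among the 19. With all 12 arrays in 1 fit, 651 genes were lower in WT minus TKO, 526 in WT minus TKO1 and 433 in WT minus TKO2, 217 were held lower, and TKO1 minus TKO2 gave 56 higher and 29 lower; the cause was not tested. The methods' t-test gave, at its own threshold, 764 higher and 329 lower in WT minus TKO, 481 and 189 in WT minus TKO1, and 520 and 218 in WT minus TKO2; after adjustment it gave 652 lower in WT minus TKO, 681 higher and 341 lower in WT minus TKO1, and 764 higher and 393 lower in WT minus TKO2. With 1 array left out, WT minus TKO gave 1156 to 1494 higher and 668 to 1251 lower, WT minus TKO1 1022 to 1338 and 547 to 1065, WT minus TKO2 987 to 1280 and 528 to 928, the held genes 709 to 832 and 242 to 376, and TKO1 minus TKO2 51 to 138 and 51 to 148. None of these counts moved by over 1.5 times under the other alternatives. With a replicate block 1492 genes held, 1279 of them shared with the 1284, MYC and LTB passed (adjusted p = 0.0106 and 0.0193), and an array lay nearest to its own number in 10 of 18 comparisons with another line.

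Signs turned only in genes that did not hold. FGFR3 gave -0.011 with cyclic loess and -0.013 with the mean of its probes, and ran from -0.054 to 0.065 with 1 array left out. CDCA7, a MYC-induced gene at -0.03, gave 0.12 with median centring and ran from -0.088 to 0.020 with 1 array left out, EZH2 from -0.31 to 0.14, IRF4 from -0.11 to 0.11 and PRAG1 from -0.018 to 0.12. Median centring turned SUZ12 to 0.17 and XBP1 to 0.14. Signal near background limits the genes detected in 1 group only.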
